A study of Homo sapiens with 6 samples.

Results

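The genes described here encode the nuclear subunits of the 5 complexes of oxidative phosphorylation. They were taken by symbol from the deposited gene table: the NDUFA, NDUFB, NDUFC, NDUFS and NDUFV genes of complex I, SDHA to SDHD of complex II, the UQCR genes and CYC1 of complex III, the COX4 to COX8 genes of complex IV, and the ATP5F1, ATP5M and ATP5P genes of complex V, with assembly factors and pseudogenes left out. The rule used names and no measured value, and it found 85 of the 42902 Gene IDs in the table: 36 in complex I, 4 in complex II, 10 in complex III, 17 in complex IV and 18 in complex V. Of these, 78 had enough counts to be tested.

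RNA was sequenced in 6 libraries of PANC-1, an established human cell line from a pancreatic ductal carcinoma. The shRRM2 group held 3 libraries of cells in which RRM2, the small subunit of the enzyme that turns ribonucleotides into deoxyribonucleotides, was knocked down with shRNA. The shNC group held 3 libraries of cells with a non-targeting control hairpin, whose genotype is labelled WT. The series asked which genes change downstream of RRM2. The number of hairpins, the time after the hairpin was given and whether each group was 1 pool or 1 clone were not given in the sources used here. Nothing in the labels says that replicates came from separate cultures, so p-values reflect spread from library to library, part or all of which may be technical.

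Complexes I to IV form the respiratory chain of the inner mitochondrial membrane. Complex I oxidises NADH and complex II oxidises succinate, complex III passes the electrons to cytochrome c, and complex IV passes them to oxygen. Complexes I, III and IV pump protons, and complex V, the ATP synthase, lets them flow back through a rotating ring of c subunits and makes ATP in its F1 head. A few subunits are encoded by mitochondrial DNA, and all others, including every subunit of complex II, are encoded in the nucleus.

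Total counts ran from 16606947 to 23300433 per library, so that 1 CPM (a level relative to the library total, here scaled by TMM, which corrects for the make-up of each library) stood for 16.6 to 23.3 counts. RRM2 was at 40.5, 40.6 and 39.5 CPM in the shRRM2 libraries, against 204, 192 and 203 CPM in the shNC libraries, which is 20.2% (log2 fold change -2.31, SE 0.0443, adjusted p = 3.72e-29). Epithelial keratins were high, with KRT8 at 1633 ± 33.0 CPM in shRRM2 and 1080.1 ± 15.4 CPM in shNC (SD, n = 3 each). KRT18 was at 1071 ± 22.7 CPM in shRRM2 and 786 ± 18.1 CPM in shNC, and KRT7 at 673 ± 9.51 CPM in shRRM2 and 706 ± 22.8 CPM in shNC. The other ductal markers were nearly absent: KRT19 had 0 to 6 counts per library and EPCAM 3 to 16. Markers of fibroblasts (COL1A2, DCN, LUM) had 0 to 10 counts per library, of endothelium (PECAM1, KDR, TEK) 0 to 6, and of immune cells 0 to 14, the highest being CD14. In RNA from bulk cultures, fewer cells of a kind and less RNA per cell cannot be told apart.

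One library stood apart for these genes. The second shRRM2 library was the highest of its group for 62 of the 78 tested subunit genes, by a median of 0.15 on the log2 scale over the mean of the other libraries of its group. Over the 12582 tested genes with a known transcript length it was highest for 4458, with a median excess of -0.00. Its excess was larger in genes with short mRNAs: Spearman's rho of the excess against mRNA length was -0.43 over the 78 genes and -0.21 over the 12582 genes, a description across genes that share 1 library. In the other 5 libraries the same rho over the subunit genes ran from -0.20 to 0.34. The part of this library in the results was not tested, and calls of the genes named below that turn on it are given with and without it.

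**Figure D1:**
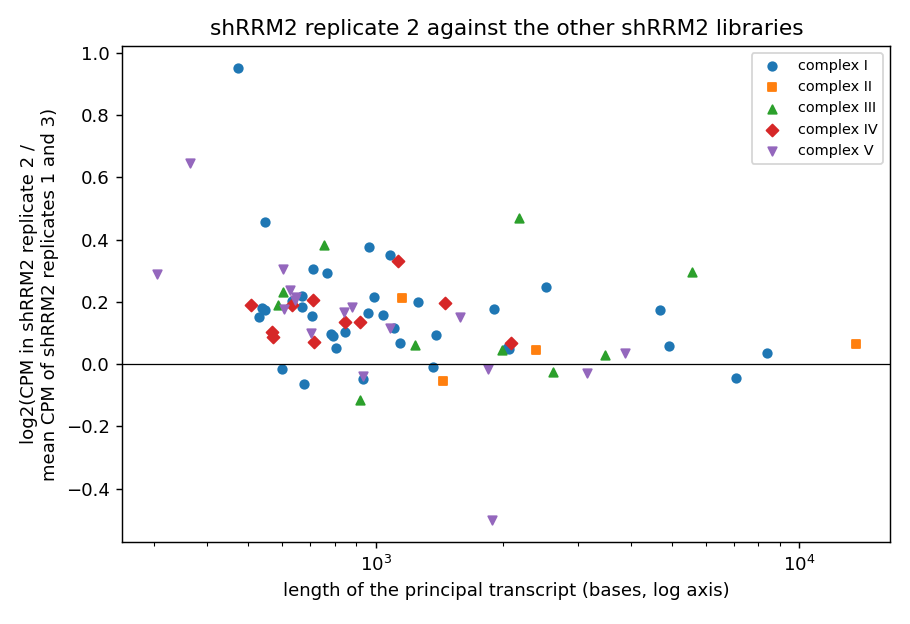
Excess of the second shRRM2 library over the mean of the other shRRM2 libraries (vertical axis, log2 scale) against mRNA length in bases (horizontal log axis), with 1 point per tested subunit gene and a marker for each complex. Most points lie above 0, 62 of 78 genes being highest in that library, and the excess is larger for short mRNAs.

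Across the 5 complexes the nuclear subunit genes split rather than moving as a block. In shRRM2 24 were lower and 10 were higher than in shNC, and 44 did not pass the test (edgeR quasi-likelihood test, Benjamini-Hochberg adjusted p under 0.05 over 15866 genes). That is 43.6% of the subunit genes called, 30.8% lower and 12.8% higher, against 52.1% of all tested genes called, 26.1% lower and 26.0% higher. So the share of subunit genes that were lower lay near the background, and the share that were higher lay below it. The median log2 fold change was -0.05 over the subunit genes and -0.01 over all tested genes. Log2 fold changes of called members ran from -0.70 for ATP5F1D to 0.38 for COX8A. With libraries scaled by total counts alone, 19 were lower and 13 higher. Without the second shRRM2 library 34 were lower and 8 higher, 31 of these being among the 34 called with all libraries.

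**Figure D2:**
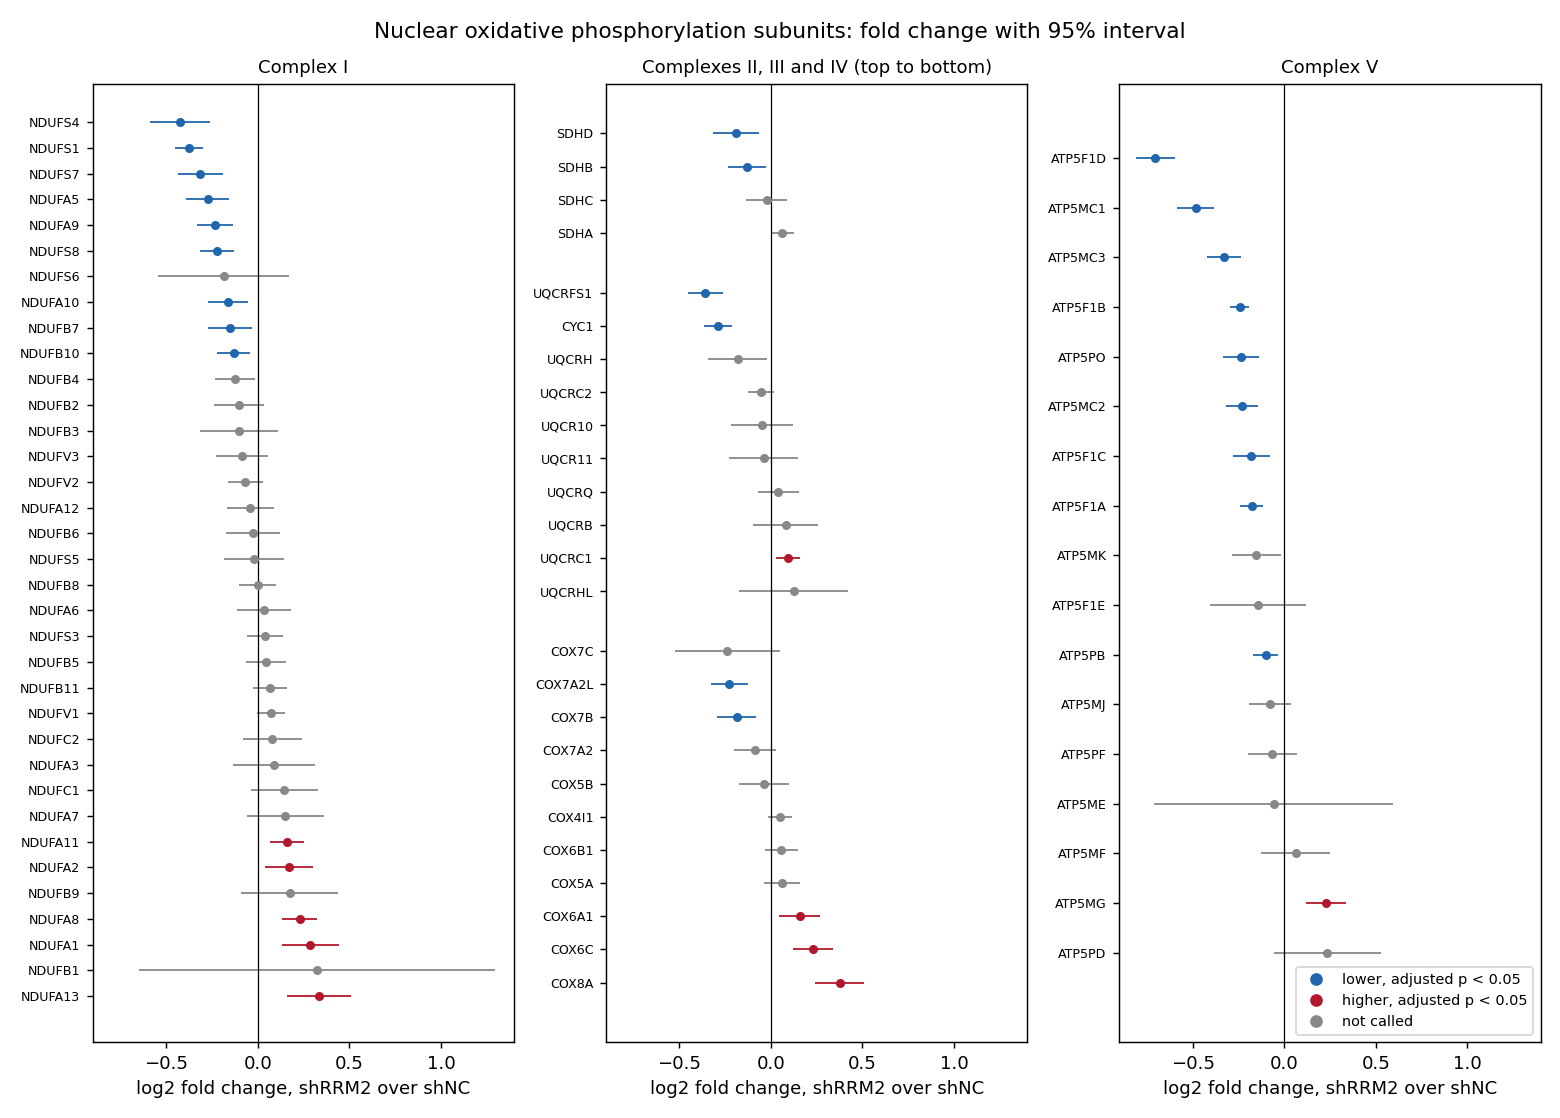
Log2 fold change, shRRM2 over shNC (horizontal axis), with its 95% confidence interval for the tested subunit genes reported by name, grouped by complex, blue where lower and red where higher past the adjusted p of 0.05 and grey where not called. Complex V leans to lower values, with 9 lower and 1 higher of 17. Complex IV has 3 higher and 2 lower of 11 with all libraries, against 2 higher and 4 lower without the second shRRM2 library. Of all tested genes 26.1% were lower and 26.0% higher.

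The groups' CPM values did not overlap for 24 genes that were lower in every shRRM2 library than in every shNC library, and for 11 that were higher. The same held for 28.6% and 29.2% of all tested genes, 57.8% in either direction. Summed over the 85 genes, the level was 9031.6 ± 436 CPM in shRRM2 and 9515 ± 257 CPM in shNC (SD, n = 3 each). That is 94.9% of the shNC level, and the shRRM2 libraries overlapped the shNC range only through the second one, at 9534 CPM. By complex, the sums in shRRM2 were 97.9% of the shNC level for complex I, 101% for complex II and 95.3% for complex III. They were 101% for complex IV and 87.7% for complex V. Abundant genes weigh most in such sums. In shNC, SDHA made up 679 of 911 CPM in complex II, and ATP5F1B 1152 of 3078 CPM in complex V. The mRNAs encoded in mitochondrial DNA summed to 50213 ± 107 CPM in shRRM2 and 52934 ± 716 CPM in shNC, which is 94.9%. All these sums depend on the TMM factors, 1.008 to 1.017 in shRRM2 and 0.978 to 0.993 in shNC, which lower the shRRM2 sums relative to shNC. Before TMM scaling the mitochondrial mRNAs made up 5.09, 5.07 and 5.10% of counts in shRRM2, against 5.19, 5.17 and 5.32% in shNC.

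**Figure D3:**
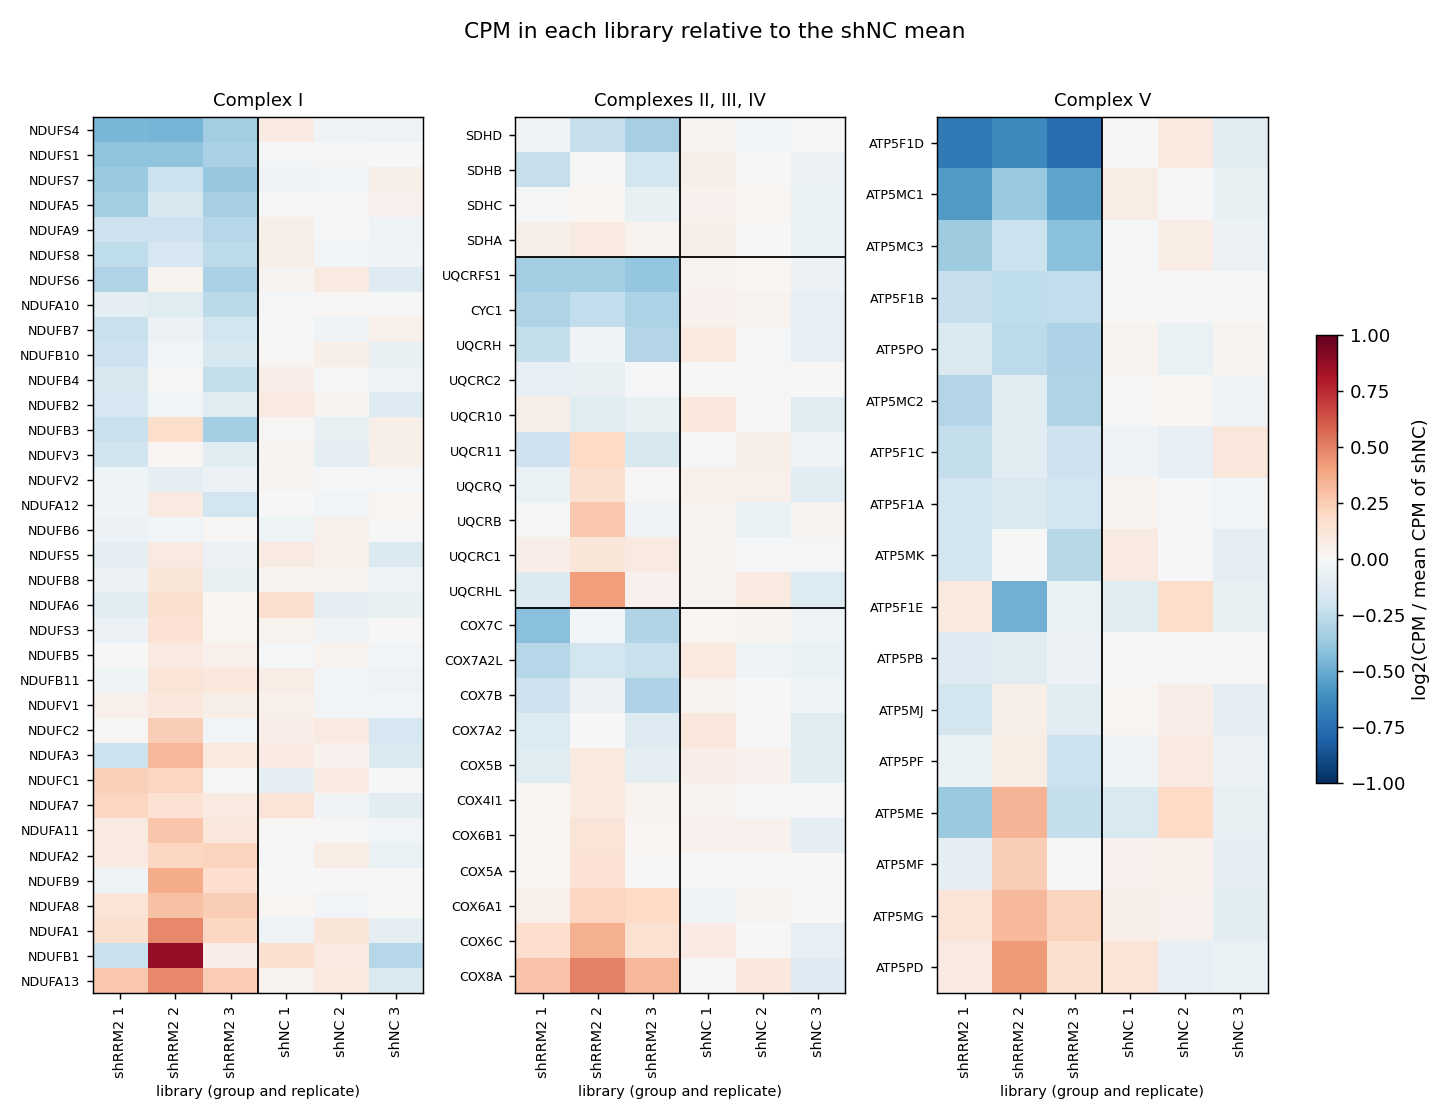
Log2 ratio of CPM in each library to the mean CPM of shNC for the tested subunit genes reported by name (red above it, blue below), with the 3 shRRM2 libraries left of the 3 shNC libraries and genes ordered by complex. ATP5F1D and ATP5MC1 are low in all 3 shRRM2 libraries, COX8A and NDUFA13 are high in all 3, and the second shRRM2 column is the higher one for most genes.

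Promoters of respiratory genes are known for sites of NRF1 (nuclear respiratory factor 1), of GABP, an ETS-family factor, and of YY1. In RefSeq windows of GRCh38.p14 from 250 bases before to 50 after a gene's start, both strands were searched for a palindrome of 10 letters (NRF1), for CCGGAAG (ETS) and for 10 letters that start with AAGATGG (YY1). The letters searched are those in capitals in the windows printed next. The ETS and YY1 motifs can overlap in the letters AAG. A window was at hand for 64 of the 78 tested subunit genes. The NRF1 motif was in 6.25% of these 64, against 2.68% of 10365 tested protein-coding genes with a window, the ETS motif in 32.8% against 22.4%, and the YY1 motif in 12.5% against 3.28%. Of the 20 lower genes with a window 2 held the NRF1, 5 the ETS and 4 the YY1 motif, and of the 9 higher genes 1, 5 and 1. Motif letters thus occurred in genes of either direction, and with so few genes these shares are a description.

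The windows below show each motif, in capitals, in its flanks, read 5′ to 3′ on the gene's strand. They were chosen to set lower beside higher genes with the same letters. The first 4 are all the NRF1 matches among the tested genes, in SDHD (chr11:112086753-112086782, plus strand), ATP5F1C (chr10:7788145-7788174, plus), NDUFA8 (chr9:122159764-122159793, minus) and NDUFB4 (chr3:120596167-120596196, plus). SDHD and ATP5F1C were lower, NDUFA8 was higher and NDUFB4 did not pass.
SDHD, NRF1: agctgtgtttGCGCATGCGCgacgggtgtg
ATP5F1C, NRF1: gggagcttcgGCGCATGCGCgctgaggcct
NDUFA8, NRF1: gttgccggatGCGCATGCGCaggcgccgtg
NDUFB4, NRF1: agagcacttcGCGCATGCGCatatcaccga
The next 3 hold the YY1 motif just after the start, in NDUFS4 (chr5:53560650-53560679, plus) and NDUFS7 (chr19:1383914-1383943, plus), both lower, and in UQCRC1 (chr3:48609604-48609633, minus), which was higher.
NDUFS4, YY1: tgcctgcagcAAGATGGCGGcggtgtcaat
NDUFS7, YY1: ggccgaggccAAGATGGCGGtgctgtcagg
UQCRC1, YY1: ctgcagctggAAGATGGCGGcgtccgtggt
The last 3 hold the ETS motif, in NDUFS1 (chr2:206159583-206159612, minus), which was lower, and in COX8A (chr11:63974591-63974620, plus) and NDUFA13 (chr19:19516204-19516233, plus), which were higher. In NDUFS1 and COX8A the letters are on the opposite strand and read CTTCCGG.
NDUFS1, ETS: ggctggggccaCTTCCGGcggaactgcggg
COX8A, ETS: cagctccagaaCTTCCGGccagcgcagcca
NDUFA13, ETS: tccgcccgggaCCGGAAGtgtgggatactg

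Complex V, the ATP synthase, held the 2 genes with the lowest fold changes, ATP5F1D and ATP5MC1. Of its 17 tested genes 9 were lower in shRRM2, 1 was higher and 7 did not pass, with a median log2 fold change of -0.15. Lower genes made up 52.9% and higher ones 5.88%, against 26.1% and 26.0% of all tested genes. Its summed level was 2652, 2795 and 2649 CPM in shRRM2, against 3121, 3087 and 3027 CPM in shNC. The groups did not overlap.

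The F1 head, which binds the nucleotides and makes ATP, summed to 1513 ± 8.28 CPM in shRRM2 and 1794 ± 13.4 CPM in shNC (SD, n = 3 each), or 84.3%. Of its 5 genes 4 fell, which is 80.0%, against 26.1% of all tested genes. ATP5F1D (Gene ID 513, chr19:1241751-1244825), the delta subunit of the central stalk, was at 63.2, 66.3 and 60.6 CPM in shRRM2, against 103, 110.4 and 95.3 CPM in shNC. All 3 shRRM2 libraries lay far below all 3 shNC libraries, and the log2 fold change of -0.70 (SE 0.0524, adjusted p = 2.76e-13) was the lowest of any subunit gene. ATP5F1B, the catalytic beta subunit, was at 984, 966 and 970.1 CPM in shRRM2, against 1161, 1145 and 1150.1 CPM in shNC (log2 fold change -0.24, SE 0.0264, adjusted p = 1.80e-09). Per kilobase of mRNA it was the most abundant of the nuclear subunit mRNAs, at 529 CPM per kb in shRRM2 and 626 CPM per kb in shNC. Its groups were also apart, with little spread within each. ATP5F1A, the alpha subunit that alternates with beta, was at 369.6, 379.5 and 371 CPM in shRRM2, against 432, 419.7 and 415 CPM in shNC (log2 fold change -0.18, SE 0.0306, adjusted p = 9.43e-06). ATP5F1C, the gamma subunit that turns inside the head, was at 87.7, 96.3 and 89.9 CPM in shRRM2, against 101, 97.8 and 112 CPM in shNC (-0.18, SE 0.0497, adjusted p = 0.00283). Here the groups came close but did not overlap. The fifth gene, ATP5F1E, encoding the small epsilon subunit, overlapped, at 13.9, 9.30 and 12.4 CPM in shRRM2 against 11.9, 14.7 and 12.4 CPM in shNC (-0.14, adjusted p = 0.364).

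The 3 c-ring genes all fell, where 26.1% of all tested genes were lower. ATP5MC1, ATP5MC2 and ATP5MC3 encode the same mature c subunit with different import sequences, so their sum is the mRNA for 1 protein: 331 ± 24.0 CPM in shRRM2 and 415 ± 13.2 CPM in shNC, or 79.6%. ATP5MC1 was at 77.8, 89.2 and 79.9 CPM in shRRM2, against 121, 115 and 109 CPM in shNC (log2 fold change -0.48, SE 0.0497, adjusted p = 6.83e-10). ATP5MC3 was at 104, 114 and 99.5 CPM in shRRM2, against 132, 139 and 127 CPM in shNC (-0.33, SE 0.0466, adjusted p = 5.24e-07). ATP5MC2 was at 137, 155 and 136 CPM in shRRM2, against 169, 169 and 164 CPM in shNC (-0.23, SE 0.0427, adjusted p = 2.99e-05). None of the 3 overlapped between groups, against 28.6% of all tested genes that were lower without overlap. On the per-length scale, the levels of ATP5MC1, ATP5MC2 and ATP5MC3 were 136, 162 and 126 CPM per kb in shRRM2, against 190.0, 190.5 and 158 CPM per kb in shNC. ATP5MC1 and ATP5MC2 stood at like levels per length in shNC, and ATP5MC1 at the lower one in shRRM2.

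The peripheral stalk, which holds the head still, was mixed, and its sum was 96.8% of the shNC level. ATP5PO, the oligomycin sensitivity protein at its top, was at 88.2, 81.5 and 79.0 CPM in shRRM2, against 100.2, 93.5 and 99.4 CPM in shNC (log2 fold change -0.23, SE 0.0481, adjusted p = 1.06e-04). ATP5PB, the b subunit, passed narrowly at -0.10 (adjusted p = 0.0118) but did not pass without the first shRRM2 library (-0.09, adjusted p = 0.0672) or with scaling by total counts (-0.06, adjusted p = 0.11). Subunit F6, ATP5PF, did not pass (-0.07, adjusted p = 0.424). ATP5PD, the d subunit, was at 108, 136 and 113 CPM in shRRM2, against 111, 95.9 and 96.9 CPM in shNC, with overlap through 1 shNC library (0.24, adjusted p = 0.15). It passed as higher without the first shRRM2 library (0.31, adjusted p = 0.0247) and without the second (0.13, adjusted p = 0.0285). ATP5PD also passed as higher with all libraries under no filter on low counts (adjusted p = 5.36e-04) or limma-voom (0.00447).

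Among the small membrane subunits, ATP5MG, the g subunit found where synthase dimers meet, was the only complex V gene called higher. It was at 79.5, 91.2 and 84.8 CPM in shRRM2, against 75.7, 74.9 and 67.6 CPM in shNC (log2 fold change 0.23, SE 0.0535, adjusted p = 5.54e-04). ATP5ME, ATP5MF, ATP5MJ and ATP5MK did not pass, with log2 fold changes of -0.15 to 0.06. ATP5ME, the e subunit, varied most, at 27.9, 45.6 and 30.4 CPM in shRRM2 against 32.4, 41.4 and 34.2 CPM in shNC, with the second library high in each group. Without the second shRRM2 library ATP5ME (-0.31, adjusted p = 0.00264), ATP5MK (-0.23, adjusted p = 2.55e-04) and ATP5MJ (-0.15, adjusted p = 0.0321) passed as lower. ATP5MK also passed without the third shNC library (-0.20, adjusted p = 0.0226). It was lower too with all libraries under no filter on low counts, limma-voom or the replicate block (adjusted p of 0.00542, 0.0355 and 0.0123).

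**Figure D4:**
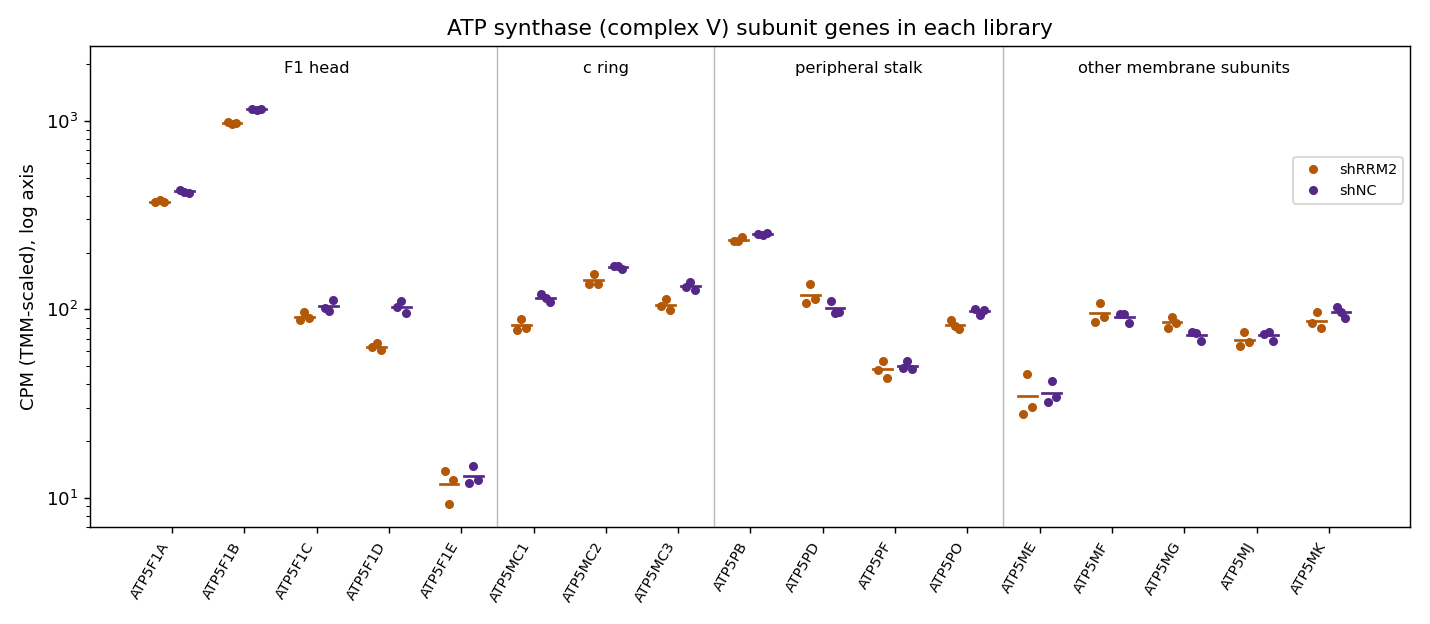
CPM of the tested ATP synthase genes in each library (vertical log axis), shRRM2 left of shNC for each gene, with bars at the group means. The F1 genes except ATP5F1E and all 3 ATP5MC genes have shRRM2 points below the shNC points, while ATP5MG has them above.

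Complex I held 9 lower and 5 higher genes of 36, with 22 that did not pass and a median log2 fold change of -0.01. The shares were 25.0% lower, near the 26.1% of all tested genes, and 13.9% higher, below the 26.0% of all tested genes. With libraries scaled by total counts alone 6 were lower and 6 higher. By subunit family, of the 8 NDUFS genes 4 fell and 4 did not pass (median -0.21), and of the 12 NDUFA genes 5 rose and 3 fell (median 0.12). Of the 11 NDUFB genes 2 fell and 9 did not pass, while the 3 NDUFV and 2 NDUFC genes did not pass, the lowest unadjusted p among them being 0.0686 for NDUFV1.

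Of the 7 nuclear core subunits, which carry the flavin and the iron-sulfur clusters, 3 fell. That is 42.9%, against 26.1% of all tested genes, in a small set. NDUFS1, which holds iron-sulfur clusters in the NADH-oxidising arm, was at 120.0, 119.6 and 127 CPM in shRRM2, against 157, 159 and 159 CPM in shNC (log2 fold change -0.38, SE 0.0383, adjusted p = 4.19e-10). NDUFS7, which holds the last cluster before ubiquinone, was at 42.5, 47.4 and 42.3 CPM in shRRM2, against 53.5, 53.9 and 57.3 CPM in shNC (-0.31, SE 0.0601, adjusted p = 4.41e-05). NDUFS8, with a pair of clusters on the same path, was at 86.6, 91.9 and 86.0 CPM in shRRM2, against 107, 101 and 101 CPM in shNC (-0.22, SE 0.0453, adjusted p = 9.06e-05). None of these 3 overlapped between groups, while 28.6% of all tested genes were lower without overlap.

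NDUFV1, NDUFV2 and NDUFS3, also core subunits, did not pass. NDUFV1, which binds the flavin, was at 157, 163 and 159 CPM in shRRM2 against 158, 149 and 149 CPM in shNC (log2 fold change 0.07, adjusted p = 0.115). It passed with libraries scaled by total counts (0.11, adjusted p = 0.0125). NDUFV2, its iron-sulfur partner, was at 76.2, 73.3 and 75.5 CPM in shRRM2 against 80.3, 77.6 and 77.9 CPM in shNC, lower in every library but short of the threshold (-0.07, adjusted p = 0.241). NDUFS3, of the ubiquinone-reducing module, was at 97.4, 112 and 103 CPM in shRRM2 against 104, 98.8 and 102 CPM in shNC (0.04, adjusted p = 0.502). Subunits that sit side by side in the same arm thus had different calls, although the differences between these genes were not themselves tested.

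Accessory subunits went both ways. NDUFS4 (Gene ID 4724, chr5:53560639-53683338), needed to keep the NADH-oxidising module attached, was at 20.5, 20.4 and 22.1 CPM in shRRM2, against 29.8, 27.5 and 27.3 CPM in shNC. The groups were well apart, and the log2 fold change of -0.42 (SE 0.0804, adjusted p = 3.67e-05) was the lowest of complex I. NDUFA5, of the ubiquinone-reducing module, was at 48.6, 55.0 and 48.8 CPM in shRRM2, against 60.7, 60.5 and 63.3 CPM in shNC (-0.27, SE 0.0575, adjusted p = 1.49e-04). NDUFA9, a subunit near the ubiquinone site, also fell (-0.23, adjusted p = 1.13e-04). NDUFA13 (chr19:19516225-19528198), also known as GRIM-19, was at 138, 159.7 and 137 CPM in shRRM2, against 118, 123 and 104 CPM in shNC. Every shRRM2 library was above every shNC library (0.33, SE 0.0763, adjusted p = 0.00542). NDUFA1, a small membrane subunit, was at 49.7, 61.8 and 51.2 CPM in shRRM2, against 43.0, 48.2 and 41.7 CPM in shNC (0.29, SE 0.0749, adjusted p = 0.00256), with a narrow gap between the groups. NDUFA8, on the intermembrane-space side, was at 91.9, 102 and 98.8 CPM in shRRM2, against 84.8, 81.9 and 83.9 CPM in shNC (0.23, SE 0.047, adjusted p = 1.12e-04).

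The remaining called genes of complex I kept or lost their calls with the choice of libraries or of scaling. NDUFA2, an accessory subunit of the NADH-oxidising arm, was at 42.7, 46.3 and 46.7 CPM in shRRM2, against 39.8, 42.2 and 38.3 CPM in shNC (log2 fold change 0.17, adjusted p = 0.0239). It did not pass without the second or the third shRRM2 or the first or the third shNC library, at 0.14 to 0.16 with adjusted p of 0.0599 to 0.109. NDUFA11, in the membrane arm, was at 0.16 (adjusted p = 0.00303) with all libraries and 0.10 (adjusted p = 0.0506) without the second shRRM2 library. NDUFA10 was at -0.16 (adjusted p = 0.0111) with all libraries and -0.10 (adjusted p = 0.142) without the third shRRM2 library. NDUFB10, of the membrane arm, at -0.13 (adjusted p = 0.0123) did not pass without the first or the third shRRM2 or the second shNC library, with adjusted p of 0.0694 to 0.113. NDUFB7, also of the membrane arm, at -0.15 (adjusted p = 0.0282) did not pass without the first or the third shRRM2 or the third shNC library, with adjusted p of 0.0986 to 0.139, nor with DESeq2 (adjusted p = 0.0629). With scaling by total counts NDUFA10, NDUFB10 and NDUFB7 did not pass either, at -0.12, -0.09 and -0.12 with adjusted p of 0.0507, 0.0652 and 0.0987.

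Several uncalled genes of complex I changed their call with 1 library left out, and some also with all libraries under another test or filter. Without the second shRRM2 library NDUFS6, NDUFB3 and NDUFB4 passed as lower, at -0.31 (adjusted p = 4.37e-09), -0.27 (adjusted p = 0.0191) and -0.20 (adjusted p = 0.00109). NDUFS6, a zinc-binding subunit, was at 245, 310.2 and 241 CPM in shRRM2 against 308, 322 and 277 CPM in shNC, and only the second shRRM2 library reached the shNC range. Without the first shRRM2 library NDUFB9 (0.27, adjusted p = 3.17e-05) and NDUFB11 (0.12, adjusted p = 0.0426) passed as higher, and without the third NDUFC1 did (0.23, adjusted p = 0.0475). With all libraries NDUFS6 passed as lower with limma-voom (adjusted p = 0.0128) and with the replicate block (5.03e-04). NDUFB4 did so with no filter on low counts (0.0283) and with the replicate block (0.0361). NDUFB9 passed as higher with no filter (0.00275) and with limma-voom (0.0344). NDUFB1 had the widest spread, at 15.8, 34.0 and 19.4 CPM in shRRM2 against 20.7, 19.6 and 15.1 CPM in shNC. Its 95% confidence interval for the log2 fold change ran from -0.65 to 1.30.

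Complex II, succinate dehydrogenase, had 2 lower genes of 4, and neither call held in every alternative. The set is small, and 26.1% of all tested genes were lower and 26.0% higher. The summed level of complex II in shRRM2, most of it SDHA, was 101% of that in shNC. SDHD, a membrane anchor, was at 58.4, 51.0 and 47.5 CPM in shRRM2, against 60.7, 58.5 and 59.9 CPM in shNC, just without overlap. Its log2 fold change was -0.19 (SE 0.0615, adjusted p = 0.00928), and without the third shRRM2 library it was -0.12 (adjusted p = 0.13). SDHB, the iron-sulfur subunit, overlapped, at 97.8, 115 and 101 CPM in shRRM2 against 119, 115 and 110.1 CPM in shNC (-0.13, SE 0.0506, adjusted p = 0.0313). It did not pass without the first or the third shRRM2 or the first or second shNC library, with adjusted p of 0.0857 to 0.206, nor with DESeq2 (adjusted p = 0.0642) or scaling by total counts (-0.09, adjusted p = 0.108). SDHC, the other anchor, was at 56.3, 57.6 and 54.0 CPM in shRRM2 against 58.7, 57.6 and 54.2 CPM in shNC (-0.02, adjusted p = 0.762).

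SDHA, the flavoprotein that oxidises succinate, was at 706, 724 and 696 CPM in shRRM2 against 709, 679.9 and 649 CPM in shNC (log2 fold change 0.06, adjusted p = 0.0966). It passed as higher without the third shRRM2 library (0.08, adjusted p = 0.0498), without the first shNC library (0.09, adjusted p = 0.0247) and with scaling by total counts (0.10, adjusted p = 0.00354). With that scaling complex II had 1 lower and 1 higher gene. SDHA also passed as higher with the filter of at least 1 CPM in 3 libraries (0.07, adjusted p = 0.0441). The 4 SDHA pseudogenes in the table held 9855 counts over all libraries, 12.6% of the 78316 counts of SDHA, so reads may have been split between them.

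In complex III 2 of 10 genes fell, 1 rose and 7 did not pass, with a median log2 fold change of -0.04. Both genes that fell encode electron-carrying subunits. UQCRFS1 (Gene ID 7386, chr19:29205320-29213151), the Rieske iron-sulfur protein, was at 74.1, 74.6 and 71.98 CPM in shRRM2, against 96.5, 95.6 and 90.5 CPM in shNC (-0.36, SE 0.0466, adjusted p = 7.05e-08). CYC1, cytochrome c1, was at 204, 212 and 201 CPM in shRRM2, against 259, 258 and 237 CPM in shNC (-0.29, SE 0.0366, adjusted p = 4.04e-08). Neither overlapped between groups, and 28.6% of all tested genes were likewise lower without overlap.

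The 2 core proteins of complex III, which carry no electron carrier, differed in sign. UQCRC1 was at 329, 343 and 336 CPM in shRRM2, against 322, 312 and 312 CPM in shNC (log2 fold change 0.09, SE 0.0317, adjusted p = 0.0133). Without the second shNC library it did not pass (0.08, adjusted p = 0.0592). UQCRC2 was at 188, 189 and 196 CPM in shRRM2 against 201, 196 and 198 CPM in shNC (-0.06, adjusted p = 0.176), and its shRRM2 values lay just under those in shNC. UQCRH, the hinge protein, was at 142, 164 and 137 CPM in shRRM2 against 179, 165 and 158 CPM in shNC (-0.18, adjusted p = 0.0606). It passed as lower without the second shRRM2 library (-0.26, adjusted p = 1.82e-06) and without the third shNC library (-0.22, adjusted p = 0.0434). UQCRH also passed as lower with all libraries under no filter on low counts, limma-voom or the replicate block (adjusted p of 3.32e-05, 0.00611 and 0.00347). Its near-identical copy UQCRHL was at 25.9, 38.4 and 29.5 CPM in shRRM2 against 29.3, 30.5 and 26.1 CPM in shNC (0.12, adjusted p = 0.468), and reads may have been split between the 2 genes. UQCRHL passed as higher without the first shRRM2 library (0.24, adjusted p = 0.0389). UQCR11 passed as lower without the second shRRM2 library (-0.18, adjusted p = 0.0228). The other small subunits, UQCR10, UQCRQ and UQCRB, did not pass, at -0.05 to 0.08.

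Complex IV, cytochrome c oxidase, had 3 higher and 2 lower of 11 tested genes and a median log2 fold change of 0.05. Its shares were 27.3% higher and 18.2% lower, against 26.0% and 26.1% of all tested genes. Without the second shRRM2 library 2 were higher and 4 lower, and without the third shNC library, with no filter on low counts, with limma-voom or with the replicate block 3 were higher and 3 lower. COX8A (Gene ID 1351, chr11:63974620-63976543), a small subunit in the membrane, was at 126, 146 and 130.1 CPM in shRRM2, against 104, 111 and 94.5 CPM in shNC. The groups did not overlap, and the log2 fold change of 0.38 (SE 0.062, adjusted p = 1.31e-04) was the highest of any subunit gene. COX6C was at 91.97, 105 and 91.2 CPM in shRRM2, against 86.6, 81.6 and 77.3 CPM in shNC (0.23, SE 0.0526, adjusted p = 4.69e-04). COX6A1, the widely expressed form of subunit 6A, was at 60.2, 67.6 and 67.1 CPM in shRRM2, against 57.0, 59.4 and 58.5 CPM in shNC (0.16, SE 0.0548, adjusted p = 0.0158). COX6A1 did not pass without the second or the third shRRM2 or the first shNC library, with adjusted p of 0.0566 to 0.0668.

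The 2 genes that fell both belong to the subunit 7 group. COX7A2L, which joins complexes III and IV into supercomplexes, was at 80.2, 86.0 and 83.7 CPM in shRRM2, against 104, 94.9 and 93.3 CPM in shNC (log2 fold change -0.23, SE 0.0484, adjusted p = 1.82e-04). COX7B was at 81.0, 89.7 and 75.5 CPM in shRRM2, against 95.8, 94.0 and 90.8 CPM in shNC (-0.19, SE 0.0516, adjusted p = 0.00268). Both were without overlap, and COX7B did not pass without the third shRRM2 library (-0.12, adjusted p = 0.0562). COX7C was at 128, 168 and 139 CPM in shRRM2 against 174, 175 and 166 CPM in shNC (-0.24, adjusted p = 0.139), the second shRRM2 library alone reaching the shNC range. Without that library it passed (-0.35, adjusted p = 6.16e-10). COX7C also passed as lower with all libraries under no filter on low counts, limma-voom or the replicate block (adjusted p of 0.0302, 0.00155 and 0.00599). COX7A2, the widely expressed partner of COX7A1, was at 66.3, 72.8 and 66.5 CPM in shRRM2 against 78.7, 72.8 and 66.9 CPM in shNC (-0.09, adjusted p = 0.202), and it passed without the third shNC library (-0.14, adjusted p = 0.0419).

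COX4I1, COX5A, COX5B and COX6B1 did not pass with all libraries. COX4I1 was at 273, 289 and 277 CPM in shRRM2 against 277, 266 and 268 CPM in shNC (log2 fold change 0.05, adjusted p = 0.219), and with scaling by total counts it passed as higher (0.09, adjusted p = 0.0205). COX5A was at 82.6, 90.2 and 81.7 CPM in shRRM2 against 81.7, 81.0 and 81.5 CPM in shNC (0.06, adjusted p = 0.295). COX5B was at 139, 161 and 140.4 CPM in shRRM2 against 158, 155 and 139 CPM in shNC (-0.04, adjusted p = 0.646), and at -0.11 (adjusted p = 0.0435) without the second shRRM2 library. COX6B1, the widely expressed form of subunit 6B, was at 113, 121 and 113 CPM in shRRM2 against 114, 114 and 104 CPM in shNC (0.06, adjusted p = 0.291). Their log2 fold changes thus lay between -0.04 and 0.06.

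Tissue-restricted forms of subunits were near or at 0, and they make up the 7 genes that were not tested, together with ATP5MGL, a copy of ATP5MG. COX4I2, known from lung, COX6A2, known from heart and muscle, and the testis forms COX7B2 and COX8C had no counts in any library, where 3 counts, the limit that a count of 0 allows, would be 0.129 to 0.181 CPM before TMM scaling. Such limits cover counting error only. COX7A1, the muscle form, had 10, 4 and 1 counts in shRRM2 against 0, 9 and 5 in shNC. COX6B2, a testis form, had 1, 9 and 8 counts in shRRM2 against 3, 3 and 1 in shNC. ATP5MGL had 2, 3 and 6 counts in shRRM2 against 1, 3 and 0 in shNC. These counts allow no comparison. Set beside these restricted forms, COX4I1, COX6A1, COX6B1, COX7A2, COX7B and COX8A supplied nearly all counts in both groups. COX7A2L, also named in the COX7A family, had more counts than COX7A2 in every library.

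A few relatives fall outside the naming rule. NDUFAB1, the acyl carrier protein that is also a complex I subunit, was at 42.8, 53.7 and 46.2 CPM in shRRM2, against 64.8, 64.8 and 55.1 CPM in shNC (log2 fold change -0.37, adjusted p = 6.28e-04). COXFA4, formerly NDUFA4 and now placed in complex IV, was at -0.01 (adjusted p = 0.905). ATP5IF1, the inhibitor of ATP synthase that stops it running backwards, was at 0.19 (adjusted p = 0.351), and DMAC2L, formerly ATP5S, at -0.57 (adjusted p = 0.00177). COXFA4L2 was under 4 CPM in every library, at -1.17 (adjusted p = 0.0343).

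Of the 13 subunit mRNAs encoded in mitochondrial DNA 8 fell and 5 did not pass, with a median log2 fold change of -0.10. That is 61.5% lower, against 26.1% of all tested genes. Without the second shRRM2 library 10 were lower and 1 higher: ND2 (-0.07, adjusted p = 0.0125) and ND3 (-0.16, adjusted p = 5.92e-05) passed as lower and COX1 (0.07, adjusted p = 0.0158) as higher. With libraries scaled by total counts 7 were lower and 2, COX1 and ND1, were higher (both 0.09, adjusted p of 3.55e-04 and 5.56e-04), against 0.05 for each with TMM. COX1 and ND1 also passed as higher with RLE size factors (both 0.06, adjusted p of 0.0387 and 0.0419), COX1 without the first shNC library (0.06, adjusted p = 0.0404) and ND1 without the third shRRM2 library (0.07, adjusted p = 0.023). Both passed with at least 1 CPM in 3 libraries (adjusted p of 0.0166 and 0.0206) and with limma-voom (0.00305 and 0.00653). COX1 did with no filter on low counts (0.0481) and ND1 with DESeq2 (0.0413). ND4L (-0.09, adjusted p = 0.00785) did not pass without the first shRRM2 library (-0.06, adjusted p = 0.10) or with scaling by total counts (-0.05, adjusted p = 0.0964). The synthase pair had the lowest fold changes. ATP8 was at 78.0, 80.9 and 74.2 CPM in shRRM2, against 96.8, 91.3 and 98.3 CPM in shNC (-0.29, adjusted p = 3.53e-06). ATP6, the subunit through which protons reach the c ring, was at 4823, 4589.8 and 4863 CPM in shRRM2, against 5765, 5547 and 5874 CPM in shNC (-0.27, adjusted p = 1.47e-10). Since poly-A RNA was selected, these values also depend on the tails of mitochondrial mRNAs.

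Assembly factors join the subunits, insert cofactors and leave before the complex works. Of the 57 tested 32 were lower and 4 higher, with a median log2 fold change of -0.22. That is 56.1% lower and 7.02% higher, against 26.1% and 26.0% of all tested genes, and the difference from the subunit genes was not tested. The assembly lists were chosen with earlier results of these data known, so these shares are a description. In complex I assembly 11 of 16 fell and 1 rose. NDUFAF4 was at 13.8, 12.1 and 13.1 CPM in shRRM2, against 20.8, 23.0 and 25.7 CPM in shNC (-0.83, adjusted p = 1.10e-08). NUBPL, which delivers iron-sulfur clusters to complex I, was at -0.63 (adjusted p = 5.48e-05), and NDUFAF8 was the 1 that rose (0.25, adjusted p = 0.00356). In complex IV assembly 16 of 24 fell and 2 rose. COX18, which inserts a mitochondrially made subunit into the membrane, was at -0.60 (adjusted p = 8.20e-05) and COA4 at -0.54 (adjusted p = 2.90e-10), while COX14 was at 0.23 (adjusted p = 0.00789) and COX15, of heme A synthesis, at 0.14 (adjusted p = 0.0156).

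The lists for the other complexes were small. In complex II assembly SDHAF3 was at -0.33 (adjusted p = 0.0164) and SDHAF1 at 0.30 (adjusted p = 0.0224). SDHAF3 did not pass without the first shRRM2 or the first or the third shNC library (adjusted p of 0.0595 to 0.097), nor SDHAF1 without the second shRRM2 or the third shNC library (0.0791 and 0.138). In complex III assembly LYRM7, which stabilises the Rieske protein before it is inserted, was at 21.6, 20.5 and 26.5 CPM in shRRM2, against 34.9, 34.3 and 31.97 CPM in shNC (-0.56, adjusted p = 8.63e-07). UQCC6 was at -0.33 (adjusted p = 0.0202) and did not pass without the third shRRM2 or the first shNC library (adjusted p of 0.102 and 0.0515). In complex V assembly 2 of 4 tested genes fell: ATPAF1, which binds the beta subunit, at -0.27 (adjusted p = 1.37e-04), and TMEM70, which acts on the c ring, at -0.26 (adjusted p = 0.00172). COX14 did not pass without the third shNC library (0.17, adjusted p = 0.0692), nor COX15 without the third shRRM2 or the first or second shNC library (0.10 to 0.12, adjusted p of 0.0712 to 0.134).

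Around the complexes, 7 of 12 genes for cytochrome c, ATP, phosphate and metabolite channels and the synthase inhibitor fell and 1 rose. That is 58.3% lower and 8.33% higher, against 26.1% and 26.0% of all tested genes. This list too was chosen with earlier results of these data known, so the shares are a description. Of these genes 8 were lower and 1 higher without the second shRRM2 library. CYCS, the cytochrome c that carries electrons from complex III to IV, was at 145, 154 and 144 CPM in shRRM2, against 216, 207 and 197 CPM in shNC (log2 fold change -0.49, adjusted p = 1.56e-12). Its groups stood well apart. SLC25A24, a carrier of ATP and phosphate, was at 51.1, 51.4 and 51.6 CPM in shRRM2, against 109, 115 and 116 CPM in shNC (-1.14, adjusted p = 1.03e-19). SLC25A25, a carrier of the same family, was at 65.8, 62.0 and 60.4 CPM in shRRM2, against 52.2, 49.3 and 47.9 CPM in shNC (0.33, adjusted p = 6.74e-06), so these relatives moved in opposite directions.

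Of 13 regulators of mitochondrial genes 12 were lower in shRRM2, with a median log2 fold change of -0.38. That is 92.3%, against 26.1% of all tested genes. The list was chosen with earlier results of these data known, so this share is a description and no test of the list. The count was 10 without the second shRRM2 library. POLRMT, the mitochondrial RNA polymerase, did not pass (-0.10, adjusted p = 0.0516), and it passed as lower without the third shNC library (-0.12, adjusted p = 0.0336). MYC, which has respiratory genes among its known targets, was at 270.5, 275 and 258 CPM in shRRM2, against 471, 471 and 456 CPM in shNC (-0.80, adjusted p = 3.55e-20). NRF1 was at 15.4, 17.9 and 16.7 CPM in shRRM2, against 21.2, 22.7 and 21.3 CPM in shNC (-0.38, adjusted p = 6.56e-04). The GABP subunits were lower too, GABPA at -0.41 (adjusted p = 2.08e-05) and GABPB1 at -0.45 (adjusted p = 3.23e-05), as was YY1 at -0.14 (adjusted p = 6.41e-04). These are the factors whose motifs are shown above, in genes that were lower, higher or uncalled.

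The coactivators of the PGC-1 family were all lower, PPARGC1B at -0.66 (adjusted p = 1.31e-08), PPARGC1A at -0.52 (adjusted p = 0.0218) and PPRC1 at -0.25 (adjusted p = 2.18e-05). PPARGC1A did not pass without the second shRRM2 or the second or the third shNC library (adjusted p of 0.0781 to 0.122). ESRRA, a nuclear receptor that PGC-1 proteins coactivate, was at -0.37 (adjusted p = 4.17e-09). Of the factors of mitochondrial DNA transcription, TFAM was at -0.29 (adjusted p = 3.41e-07), TFB2M at -0.43 (adjusted p = 9.71e-07) and TFB1M at -0.26 (adjusted p = 0.0281). TFB1M did not pass without the first or second shRRM2 or the second or the third shNC library (adjusted p of 0.0562 to 0.149), nor with DESeq2 (adjusted p = 0.0568) or scaling by total counts (adjusted p = 0.0624). Whether the levels of these regulators bear on the subunit genes was not tested.

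**Figure D5:**
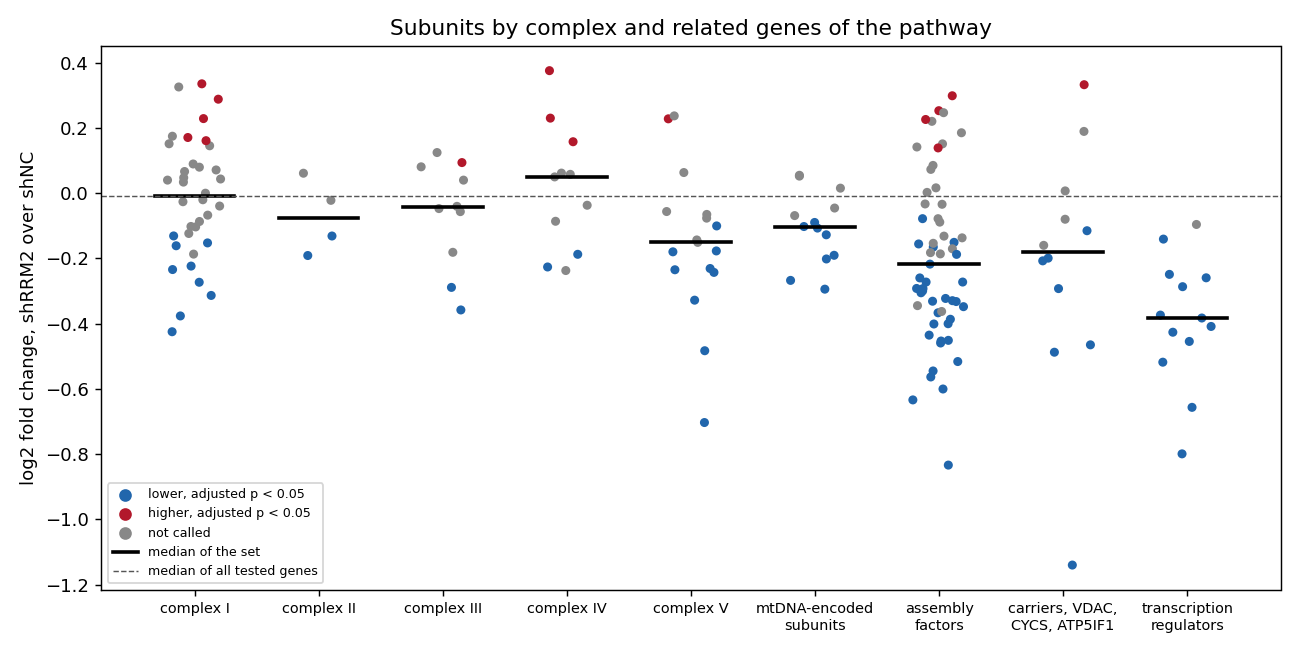
Log2 fold change, shRRM2 over shNC, for each tested gene of the 5 complexes, the mitochondrially encoded subunits, the assembly factors, the carriers with cytochrome c, and the regulators, with a black line at each list's median and a dashed line at the median of all tested genes. The medians are -0.01, -0.08, -0.04, 0.05 and -0.15 for complexes I to V, -0.10 for the mitochondrially encoded subunits, -0.22 for the assembly factors, -0.18 for the carriers and -0.38 for the regulators.

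Limits of counting bear on some of these values. The strand setting of the counter was not given, and 32 of the 85 genes overlap another listed gene in span, 11 of them one with at least 10% of their own counts. These 11 are NDUFS6, NDUFB11, NDUFA3, NDUFC1, NDUFA2, COX8C, ATP5F1B, ATP5MK, ATP5PF, ATP5PD and ATP5MGL, and ATP5PF shares its span with GABPA. COX8C had 0 counts of its own. The 10% uses counts as deposited, so any reads left uncounted in a shared span do not enter it. For example, NDUFC2-KCTD14, which overlaps NDUFC2, and ATP5MF-PTCD1, which overlaps ATP5MF, had 0 counts. Other genes than these 11 may thus be affected.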

How the data were processed

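RNA of 6 PANC-1 libraries was measured, 3 shRRM2 and 3 shNC. Per the labels' protocols, poly-A RNA was selected on poly-T beads and the kit was directional. The deposited table holds raw counts per Gene ID. The submitters' processing notes name fastp 0.23.4, featureCounts and hg38. For aligner, annotation release, strand and multi-mapped reads, settings were not given in the sources used here. Its shRRM2 columns are headed as siRNA against RRM2, while the labels give a hairpin. Symbols came from RefSeq for 40120 of the 42902 Gene IDs, and unmatched IDs held at most 1.37% of a library's counts. The 78 members and all other genes kept by filterByExpr (15866) were fitted with edgeR 4.0.16 in R 4.3.3: TMM scaling, group as the sole term, robust quasi-likelihood test, two-sided, Benjamini-Hochberg adjustment over all tested genes and a threshold of 0.05. SE is the log2 fold change divided by the root of F. CPM uses TMM-scaled library sizes, and SDs are over 3 libraries. Fits were tested on simulated data. mRNA lengths are those of GENCODE principal transcripts, not of the authors' annotation. Promoter windows of 300 bases, 250 before and 50 after the start, came from RefSeq GRCh38.p14.

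Between replicates, chi-square divided by its degrees of freedom was 2.23 to 3.87, where sampling noise alone would give 1. Each library was taken as 1 sample, although this ratio cannot tell separate cultures from technical spread. The 14 alternatives were RLE size factors, total counts alone as the scale, all genes with a count, at least 1 CPM in 3 libraries, DESeq2 1.42.0, limma-voom (limma 3.58.1), a replicate block, each of the 6 libraries left out, and an adjusted p of 0.01. Values in every library are given for the called members of lowest and highest fold change in each complex, the core subunits, complex II, the F1 and c-ring genes and members with paralogs, and for at most 2 genes at either end of each pathway list. Members with calls that turn on 1 library, and a few with wide spread, were added after their values were seen. The members and lists were chosen with earlier results of these data known. Amino acid sequences were not used here. One item is not reported here by name.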

Additional observations from a re-analysis of the deposited data

How the results depend on the processing

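The 34 called members kept their direction in all 14 alternatives, and 23 of them, 17 lower and 6 higher, also kept their call in each. Of the 44 uncalled members 19 passed in at least 1 alternative. Members called numbered 34 with RLE size factors, 32 with library size alone, 40 without a filter, 35 with at least 1 CPM in 3 libraries, 32 with DESeq2, 40 with limma-voom, 26 at an adjusted p of 0.01, and 28 to 42 with 1 library left out. Over all genes 8261 were called, 7449 with DESeq2 and 7490 to 7975 with 1 library left out. Library size alone moved the median log2 fold change of all genes to 0.03, against -0.01 with TMM.

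Sets with few called genes moved most. Complex II had 1 called gene with DESeq2 and 1 at an adjusted p of 0.01, and 1 to 2 with a library left out, 1 without the first or the third shRRM2 or the second shNC library. Without the third shRRM2 library that gene was SDHA, as higher, and neither SDHD nor SDHB passed. Complex III had 2 to 5 with a library left out, 5 without the second shRRM2 library, and complex IV 3 to 6, 3 without the third shRRM2 library. Complex II assembly had 0 at an adjusted p of 0.01 and 0 to 2 with a library left out. Complex III assembly had 1 at an adjusted p of 0.01 and 1 to 3 with a library left out. The causes were not tested.

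Replicate numbers did not pair the libraries: same-numbered libraries correlated at -0.0208 to -0.00339 in their deviations from the group means. With the replicate number as a block 39 members were called, including the 34, and 8244 genes in all. Depth limits genes of few counts, and ATP5F1E was at 9.30 to 14.7 CPM. The span of ATP5F1E, with 1408 counts over all libraries, also overlaps TUBB1 (108 counts) and the lncRNA SLMO2-ATP5E (4 counts). Whether reads of ATP5F1E were lost to these overlaps was not tested.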
